A study of Mus musculus with 10 samples.

Results

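The response of activated mouse CD8+ T cells to the cytokine interleukin-21 (IL-21) was read from 4 of the 10 RNA libraries of a series on IL-21, IL-2 and a lactate dehydrogenase inhibitor. The 4 were picked by their titles, as the 2 libraries of cells kept with IL-21 and the 2 of cells kept without cytokine, neither with inhibitor. CD8+ T cells were isolated with an EasySep kit from spleens of C57BL/6N mice, and no age, sex or genetic change is given in the labels. All cells were first activated for 48 h on plates coated with anti-CD3 (2 µg/ml) with soluble anti-CD28 (2 µg/ml), then pooled, washed and re-plated. The IL-21 group then received mouse IL-21 at 100 ng/ml and the no cytokine group received none, each for 48 h unless otherwise specified by the submitters. A further group of 2 libraries, treated alike but with human IL-2 at 100 IU/ml, is set against IL-21 where a gene is followed further. Cells without cytokine are cells from which the stimulus was withdrawn, and no library of resting cells or of cells at the end of activation was used. The labels number the libraries 1 and 2 without saying whether the numbers stand for mice, cultures or repeats, so the p-values reflect differences among libraries that may be technical in origin.

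IL-21 is made mainly by helper and natural killer T cells. It binds a receptor of its own chain, IL-21R, and the common gamma chain, and the kinases JAK1 and JAK3 on these chains then phosphorylate STAT3 above all, with STAT5 to a lesser degree. In CD8+ T cells the cytokine is known for supporting killing, long-lived responses and a less differentiated state than IL-2 gives.

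The 4 libraries held between 27137191 and 41035042 reads on the transcripts kept, the fewest in IL-21 replicate 2. There 59.9% of all reads in the authors' total lay on them, against 69.1 to 74.6% in the other 3. Levels below are the authors' RPKM, reads per kilobase of transcript, scaled to that total, so levels in IL-21 replicate 2 lie low as a whole. Fold changes are log2 values, IL-21 over no cytokine, from counts scaled by TMM, with their standard error. T cell identity genes were present at high levels: the 14 markers of CD8 T cells summed to 3574 and 2694 RPKM in the IL-21 libraries and to 3388 and 2713 RPKM in those without cytokine, and the 4 markers of CD4 T cells to 3.82 and 3.32 RPKM against 4.66 and 4.10. The IL-21 pair was the widest of the 5 replicate pairs. Its SD over genes was 0.805 for the difference in log2 CPM (counts scaled by TMM to a common total). That SD was 0.519 without cytokine and 0.355 to 0.491 in the other 3 groups.

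Of 14357 genes tested, 1658 were called, that is 11.5%, by edgeR's quasi-likelihood test over all 10 libraries at a Benjamini-Hochberg adjusted p below 0.05. IL-21 raised 811 (5.65%) and lowered 847 (5.9%), a split that was 648 and 1092 with scaling by library size alone and 440 and 1335 with limma on log2(RPKM + 1), where the median over all genes was -0.08 and -0.10 in place of -0.01. At least a 2-fold change was seen for 342 higher genes (2.38%) and 434 lower genes (3.02%). This fit shares 1 estimate of a gene's spread among all groups. With a weight for each group's own spread (limma's voom), 374 of the genes (2.61%) were called, 264 higher (1.84%) and 110 lower (0.766%). A fit of only the 4 libraries called 91 (0.663%), 79 higher (0.575%) and 12 lower (0.0874%). In all 3 fits 88 genes were called (0.613%), 77 higher (0.536%) and 11 lower (0.0766%), and these are named below as called in all 3 fits. Each other call named was lost with a weight per group, in the fit of the 4 libraries, or in both. Leaving out single libraries moved the count as well: it was 749 without no cytokine replicate 2, 930 and 925 when IL-2 + LDHi replicate 1 or 2 was left out, 1080 and 1057 without IL-2 replicates 1 and 2, 2360 without IL-21 replicate 2 and 3967 without IL-21 replicate 1.

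**Figure D1:**
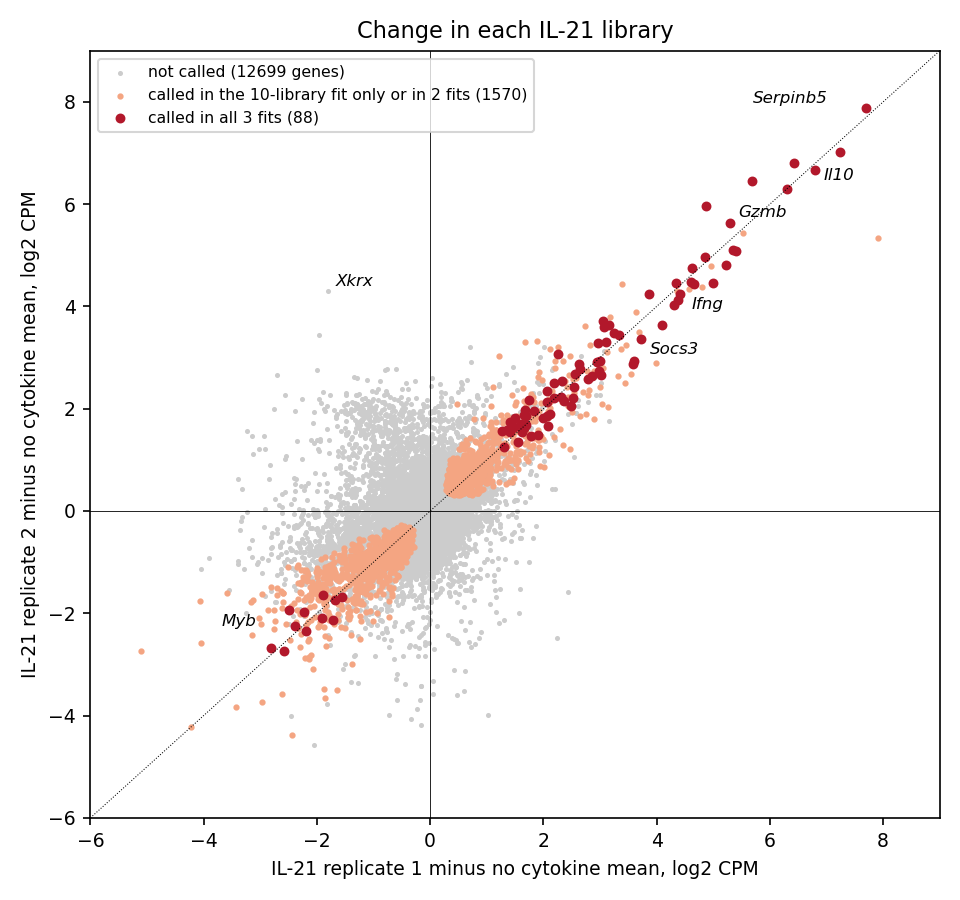
Each point is 1 of the 14357 genes tested. The axes give the log2 CPM (TMM-scaled) of IL-21 replicate 1 and of IL-21 replicate 2 minus the mean of the no cytokine libraries, with the dotted line at equal change. The 88 genes called in all 3 fits, a choice that favours genes alike in both IL-21 libraries, lie along the line in 2 clouds, 77 higher and 11 lower. Genes such as Xkrx, far from the line, stand high in 1 IL-21 library.

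The genes with the largest rise included several of secreted and granule proteins. Serpinb5, which encodes the serpin maspin (chromosome 1, 106861175 to 106883348, mm10), measured 14.6 and 13.4 RPKM in the IL-21 libraries against 0.0899 and 0.0432 RPKM without cytokine, where it had 13 and 5 reads. Both IL-21 libraries stood far above the others. Both lay above for 11.2% of the genes tested and both below for 31.5%. Serpinb5 rose by 7.82 ± 0.31 (adjusted p = 9.56e-06 by edgeR's quasi-likelihood test). Gadd45g, a stress-response gene induced by cytokines, measured 70.7 and 42.9 RPKM with IL-21 and 1.76 and 2.01 RPKM without, and rose by 5.05 ± 0.23. Igfbp4, which encodes an insulin-like growth factor binding protein, stood at 131 and 96.3 RPKM against 5.03 and 5.75, a rise of 4.54 ± 0.19. Of the 12 genes with the largest rise by the naming rule, 10 were called in all 3 fits. Ggt1, a gamma-glutamyltransferase of glutathione turnover, rose by 4.23 ± 0.19, and B4galnt4, a glycosyltransferase, by 4.18 ± 0.18. Ret, a receptor tyrosine kinase, rose by 4.31 ± 0.50 and Gzmc by 7.57 ± 0.99, and both calls ended in the fit of only the 4 libraries. AA467197 rose by 4.4 ± 0.31 and Mir147 by 4.89 ± 0.50, and since the microRNA gene lies within the other, their reads cannot be told apart.

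**Figure D2:**
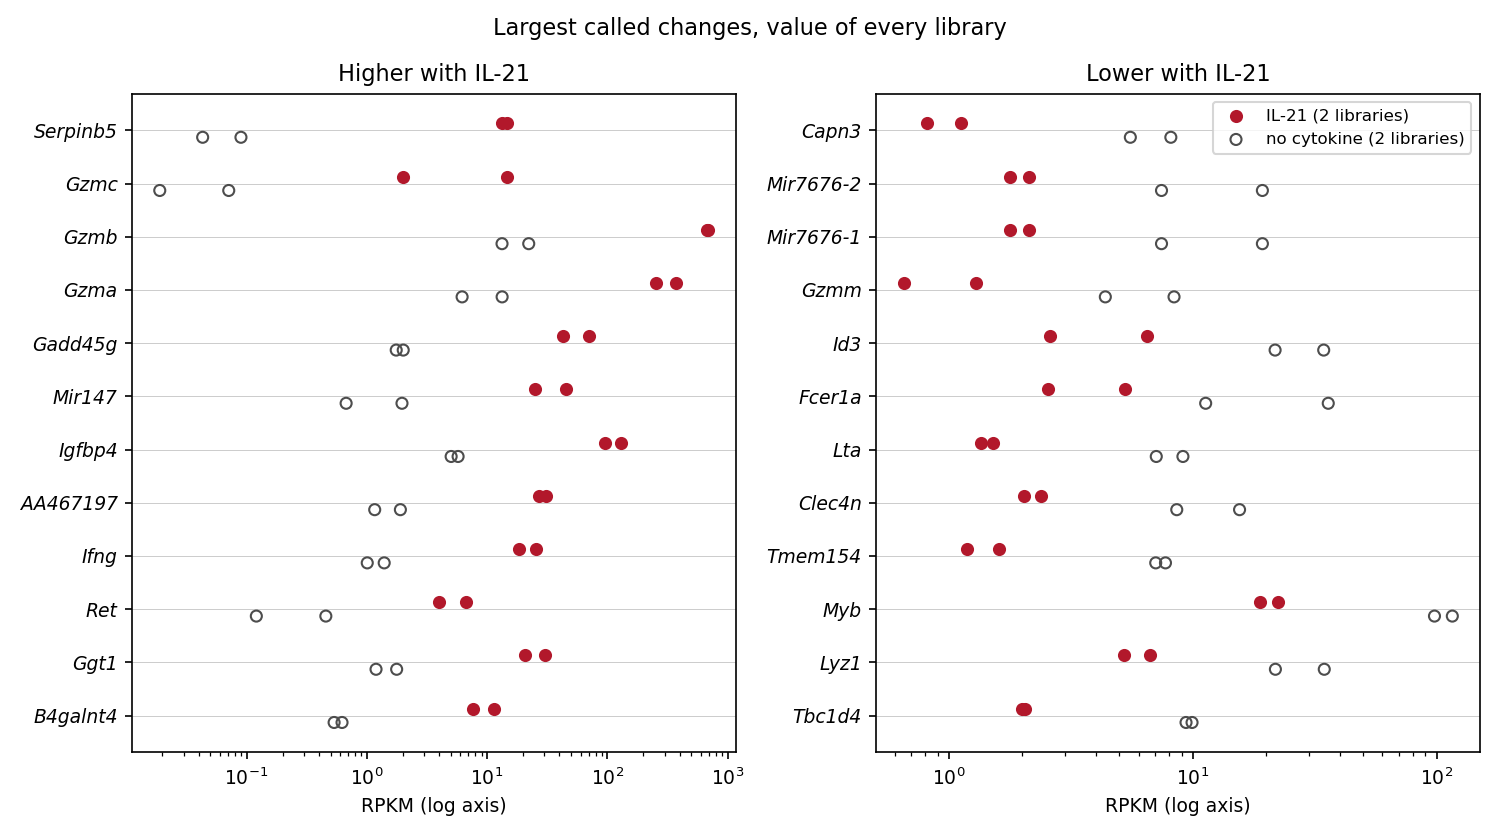
Points give RPKM on a log axis in each of the 4 libraries, filled for IL-21 and open for no cytokine, for the 12 genes with the largest called rise (left) and the 12 with the largest called fall (right). The groups do not overlap for any gene drawn, which the naming rule required. Gzmc spans 14.6 and 1.98 RPKM between the IL-21 libraries, and Gzmb lies at 672 and 692 RPKM.

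The receptor and its signalling chain moved in part. Il21r, the receptor's own chain (chromosome 7, 125603252 to 125634397, mm10), measured 100.3 and 76.5 RPKM with IL-21 and 37.3 and 28.7 RPKM without. Both IL-21 libraries lay above both others, and the gene rose by 1.57 ± 0.13 (adjusted p = 0.000214, edgeR) and was called in all 3 fits. Jak3, the kinase of the common gamma chain, measured 77.0 and 42.2 RPKM against 27.4 and 18.1 RPKM and rose by 1.51 ± 0.22. Il2rg, the common gamma chain itself, rose by 0.90 ± 0.12, at 455 and 392 RPKM against 276 and 231 RPKM. Stat3, the main transducer, rose by 0.67 ± 0.12 (adjusted p = 0.0107), at 62.5 and 44.0 RPKM against 39.5 and 34.2 RPKM and was called in neither of the other fits nor without no cytokine replicate 2. Of 13 receptor and JAK-STAT genes tested, 5 were higher and none lower, and 3 were higher without no cytokine replicate 2. Their median change was 0.01, beside -0.01 over all genes tested, and it turned to -0.14 on the log2(RPKM + 1) scale. Jak1, the other kinase of the receptor, was at 214.7 and 155 RPKM against 247 and 211.7 RPKM (-0.17 ± 0.12, adjusted p = 0.403).

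Known STAT3 targets, a list chosen with earlier results of these data known, were called higher more often than genes at large. Of 18 tested, 11 were higher and none lower, with a median of 0.83, beside 5.65% of all genes tested called higher. With a weight per group 8 kept the call, beside 1.84% of all genes tested called higher, and 6 kept it in the fit of the 4 libraries. Socs3, which encodes an inhibitor that feeds back on gp130-type receptors and is induced by STAT3, measured 213.99 and 134 RPKM with IL-21 and 16.1 and 16.3 RPKM without. The IL-21 libraries stood far above the others, and Socs3 rose by 3.56 ± 0.17 (adjusted p = 1.03e-05, edgeR) and was called in all 3 fits. Bcl3, an IκB-like coactivator, measured 64.6 and 60.0 RPKM against 8.60 and 6.54 RPKM, a rise of 3.20 ± 0.17. Pim1, a survival kinase, rose by 1.90 ± 0.11, at 175 and 126 RPKM against 47.3 and 41.7 RPKM. Junb, an AP-1 subunit, rose by 1.71 ± 0.18, and Bcl6, the repressor of follicular helper and memory cells, by 1.29 ± 0.13, at 13.1 and 13.4 RPKM against 6.10 and 6.08 RPKM. The Bcl6 call ended in the fit of only the 4 libraries. Icam1, an adhesion ligand of the integrin LFA-1, rose by 0.78 ± 0.13 without a call in the other 2 fits. Among members that were not called, Batf stood at 29.4 and 18.8 RPKM against 21.2 and 14.6 RPKM (0.56 ± 0.19, adjusted p = 0.0875) and Prdm1, which encodes Blimp-1, at 1.496 and 1.14 RPKM against 0.980 and 0.883 RPKM (0.65 ± 0.18, adjusted p = 0.0504).

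STAT proteins bind an inverted repeat, and the letters TTCNNNGAA, the same on both strands, were searched in the 250 bases before the start of each gene in RefSeq (GRCm38.p6). Of the 11 called STAT3 targets 9 had a promoter in the table and 3 of these held the letters, and of the 12 genes with the largest rise 10 had one and 1 held them. The promoters of these genes are given 5′ to 3′ on the gene's own strand, ending at the base before the start that RefSeq lists in this table, with each match in capitals. The Socs3 promoter (chr11:117969367-117969616, minus strand) holds 1 match whose first base lies 154 bases before that start. This stretch lies inside the span of the Socs3 gene (chromosome 11, 117966079 to 117970336, mm10). Where the transcript whose reads were counted starts was not looked up, so the stretch may not be the sequence before that start. The first Bcl6 start listed (chr16:23988853-23989102, minus strand) has 1 match. The other (chr16:23981284-23981533, minus strand), inside the span of the Bcl6 gene, has 3. The Icam1 promoter (chr9:21015690-21015939, plus strand) holds 1 match 42 bases before the start and the Ifng promoter (chr10:118440796-118441045, plus strand) 1 at its far end.
Socs3: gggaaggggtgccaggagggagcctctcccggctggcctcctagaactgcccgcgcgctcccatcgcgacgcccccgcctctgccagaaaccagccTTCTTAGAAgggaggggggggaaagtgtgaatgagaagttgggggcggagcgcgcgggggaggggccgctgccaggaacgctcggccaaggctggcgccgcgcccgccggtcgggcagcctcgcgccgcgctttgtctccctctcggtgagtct
Bcl6, first start: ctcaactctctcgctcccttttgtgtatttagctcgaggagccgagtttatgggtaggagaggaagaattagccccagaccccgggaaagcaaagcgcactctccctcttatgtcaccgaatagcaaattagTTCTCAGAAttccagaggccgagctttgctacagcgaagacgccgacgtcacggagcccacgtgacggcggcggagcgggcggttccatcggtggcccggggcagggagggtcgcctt
Bcl6, other start: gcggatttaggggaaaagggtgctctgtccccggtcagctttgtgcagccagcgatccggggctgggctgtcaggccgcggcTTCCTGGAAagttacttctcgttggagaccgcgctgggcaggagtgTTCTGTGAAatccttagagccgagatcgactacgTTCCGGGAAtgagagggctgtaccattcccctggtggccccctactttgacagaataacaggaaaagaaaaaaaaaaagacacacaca
Icam1: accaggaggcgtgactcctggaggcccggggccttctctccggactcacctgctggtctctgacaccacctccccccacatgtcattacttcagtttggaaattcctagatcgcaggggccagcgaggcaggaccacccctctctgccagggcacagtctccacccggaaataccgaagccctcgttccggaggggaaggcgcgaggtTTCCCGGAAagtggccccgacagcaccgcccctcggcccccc
Ifng: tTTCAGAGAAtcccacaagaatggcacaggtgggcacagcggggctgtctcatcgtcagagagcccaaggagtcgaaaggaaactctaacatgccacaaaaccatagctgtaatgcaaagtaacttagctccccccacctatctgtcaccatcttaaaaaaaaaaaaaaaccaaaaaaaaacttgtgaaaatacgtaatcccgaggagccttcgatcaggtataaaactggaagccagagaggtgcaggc
The letters stood in a promoter of 8.13% of the 27025 genes of the table, of 7.26% of the 10500 genes tested that have one, of 8.35% of those called higher, of 9.84% of those called lower and of 7.01% of those not called. Among genes higher in all 3 fits 8 of 55 held them (14.5%). These are counts of letters in a short window, and no binding was measured.

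Killing molecules were among the largest rises. Of 20 cytotoxic genes tested 12 were higher and 1 lower, with a median of 1.31, and 7 of the rises held with a weight per group. Gzmb, the granule protease granzyme B, was at 672 and 692 RPKM with IL-21 against 22.2 and 13.3 RPKM without, and rose by 5.43 ± 0.28 (adjusted p = 1.81e-05, edgeR). Gzma, the tryptase granzyme A, measured 369.9 and 252 RPKM against 13.4 and 6.21 RPKM, a rise of 5.12 ± 0.43. Prf1, the pore former perforin, stood at 33.4 and 28.9 RPKM against 11.9 and 10.3 RPKM and rose by 1.64 ± 0.11. Tnfsf10, which encodes the death ligand TRAIL, measured 19.3 and 19.6 RPKM against 6.74 and 7.81 RPKM, a rise of 1.59 ± 0.14. All 4 had IL-21 libraries above both libraries without cytokine, which the naming rule required of Gzmb and Gzma, and were called in all 3 fits. Gzmm, a granzyme of innate lymphocytes, went the other way, at 1.29 and 0.652 RPKM with IL-21 and 8.37 and 4.38 RPKM without. It fell by 2.58 on the log2 scale (SE 0.37), and that call held in neither of the other fits. Gzmc had 724 and 84 reads with IL-21 and 1 and 3 without. It belongs to a cluster of near-identical granzyme genes on chromosome 14, between which the authors' counting may have split reads, so its own share is uncertain.

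Among secreted signals a few genes rose steeply while others fell. Ifng, which encodes interferon gamma, measured 25.5 and 18.4 RPKM with IL-21 and 1.40 and 1.01 RPKM without, and rose by 4.33 ± 0.27 (adjusted p = 4.6e-05, edgeR). Il10, an anti-inflammatory cytokine, had 348 and 220 reads with IL-21 (5.01 and 3.72 RPKM) and 2 and 2 reads without (0.0272 and 0.0339 RPKM), and its fitted change was 7.23 ± 0.86. The no cytokine libraries were close to no signal, so the size of that change rests on 4 reads. Ccl4, which encodes an inflammatory chemokine, measured 51.2 and 25.3 RPKM against 3.92 and 4.63 RPKM and rose by 3.28 ± 0.37. Lta, the lymphotoxin alpha gene, fell to 1.51 and 1.36 RPKM with IL-21, against 9.11 and 7.08 RPKM without (-2.34 ± 0.16, adjusted p = 6.11e-05). These 4 were called in all 3 fits and their groups did not overlap, which the naming rule required of Ifng and Lta. Tnfsf8, which encodes the CD30 ligand, rose by 0.86 ± 0.11. Its receptor gene Tnfrsf8 was at 2.94 and 2.38 RPKM against 0.428 and 0.253 RPKM and rose by 3.09 ± 0.37, a call lost with a weight per group. Of 23 cytokine and chemokine genes tested 5 were higher and 4 lower, with a median of -0.19, and 2 were lower without no cytokine replicate 2.

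Transcription factors of effector and memory cells did not move as blocks. Bhlhe40, a repressor that supports effector cytokines, stood at 23.2 and 19.2 RPKM against 4.98 and 5.30 RPKM and rose by 2.2 ± 0.15 (adjusted p = 8.71e-05, edgeR; called in all 3 fits). Id2, an inhibitor of E proteins needed by effector cells, measured 205.8 and 169 RPKM against 50.4 and 45.1 RPKM and rose by 2.13 ± 0.24. Its counterpart Id3, linked to memory precursors, fell to 6.51 and 2.59 RPKM, against 34.4 and 21.8 RPKM without cytokine (-2.51 ± 0.34). The Id2 call was lost with a weight per group and the Id3 call in the fit of the 4 libraries. Myb, a factor of stem-like T cells, fell to 18.9 and 22.3 RPKM with IL-21, against 116 and 98.1 RPKM without. Its groups lay apart in RPKM, as the naming rule required, and its fall (-2.2 ± 0.17, adjusted p = 0.00015, edgeR) was called in all 3 fits. Hopx rose by 1.56 ± 0.25 and Tox, a factor of exhausted cells, fell by 0.96 on the log2 scale (SE 0.18). Tbx21, which encodes T-bet, stood at 19.0 and 13.3 RPKM against 12.4 and 7.75 RPKM (0.82 ± 0.23, adjusted p = 0.0518), and Eomes at 15.9 and 15.3 RPKM against 22.9 and 17.7 RPKM (-0.22 ± 0.14, adjusted p = 0.357). Tcf7, which encodes the stem-cell factor TCF-1, was high in all 4, at 649.9 and 512 RPKM against 602 and 424 RPKM. Of 23 effector factors 5 were higher and 3 lower (median 0.12), and of 14 memory and stem factors 2 were higher and 2 lower (median -0.03). Without IL-21 replicate 2 the effector list had 9 higher and 6 lower, and the memory list 2 higher and 4 lower. The effector median turned to -0.03 on the log2(RPKM + 1) scale and the memory median to 0.15 without IL-21 replicate 1.

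On the surface, the chemokine receptor gene Ccr2 rose and Cxcr4, Itgae and Cxcr5 fell. Ccr2, the receptor for monocyte chemoattractants, measured 37.5 and 53.3 RPKM with IL-21 and 6.87 and 9.04 RPKM without (2.71 ± 0.27). It was called in all 3 fits, with no overlap between groups. Cxcr4, the receptor for CXCL12, fell to 5.16 and 6.33 RPKM, against 24.1 and 28.3 RPKM without cytokine (-2.01 ± 0.21), and Itgae, the CD103 integrin chain, to 6.68 and 4.28 RPKM, against 17.5 and 12.8 RPKM (-1.33 ± 0.17). Those calls held with a weight per group but not in the fit of the 4 libraries. Cxcr5, the follicle-homing receptor, fell by 1.17 on the log2 scale (SE 0.23), a call kept in neither. Of 26 chemokine receptor and adhesion genes 5 were higher and 5 lower (3 higher without no cytokine replicate 2), with a median of 0.02 that turned to -0.09 on the log2(RPKM + 1) scale. Il12rb2, the signalling chain of the IL-12 receptor, stood at 54.9 and 52.7 RPKM against 10.8 and 7.28 RPKM and rose by 2.74 ± 0.23, and Il18r1, of the IL-18 receptor, rose by 1.42 ± 0.13, at 47.8 and 47.8 RPKM against 19.4 and 20.7 RPKM. Of 26 cytokine receptors 5 were higher and 1 lower (median 0.18). The private chains of the receptors for IL-2 and IL-7, which also use Il2rg, were not called: Il2ra measured 9.87 and 18.7 RPKM against 8.20 and 6.81 RPKM (1.14 ± 0.32, adjusted p = 0.054), and Il7r 100.4 and 102 RPKM against 147 and 188 RPKM (-0.56 ± 0.18, adjusted p = 0.0749).

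Among inhibitory receptors more rose than fell. Of 19 tested 8 were higher and 2 lower, with a median of 0.43, and 6 of the rises held with a weight per group. Lag3 measured 36.2 and 22.3 RPKM with IL-21 and 8.82 and 5.08 RPKM without and rose by 2.2 ± 0.30 (adjusted p = 0.00279, edgeR). Pdcd1, which encodes PD-1, measured 7.30 and 3.65 RPKM against 1.65 and 1.34 RPKM (1.99 ± 0.25), and Cd160 27.1 and 19.99 RPKM against 8.72 and 4.72 RPKM (1.95 ± 0.24). Btla rose by 1.80 ± 0.22. In each the IL-21 libraries lay above the others, and each call ended in the fit of only the 4 libraries. Cd38, an ecto-enzyme of NAD breakdown, rose by 1.67 ± 0.19 and was called in all 3 fits. Ctla4 fell to 36.7 and 23.3 RPKM, against 69.7 and 51.3 RPKM without cytokine (-0.87 ± 0.21), a call that held in neither of the other fits and was lost without no cytokine replicate 1, either IL-2 library or either IL-2 + LDHi library. Of 15 receptors shared with natural killer cells 11 were higher and none lower, with a median of 1.22, and 7 held with a weight per group. Klrb1f measured 15.8 and 11.02 RPKM against 3.45 and 2.75 RPKM (a 4.77-fold rise) and Klra7, a Ly49 receptor, 39.5 and 35.9 RPKM against 13.6 and 11.1 RPKM (1.77 ± 0.15), both in all 3 fits. Klrc1, which encodes the inhibitory receptor NKG2A, rose by 1.85 ± 0.21 and Klra9 by 2.63 ± 0.30. The Klra genes are near-identical to each other, so reads may be split between them.

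**Figure D3:**
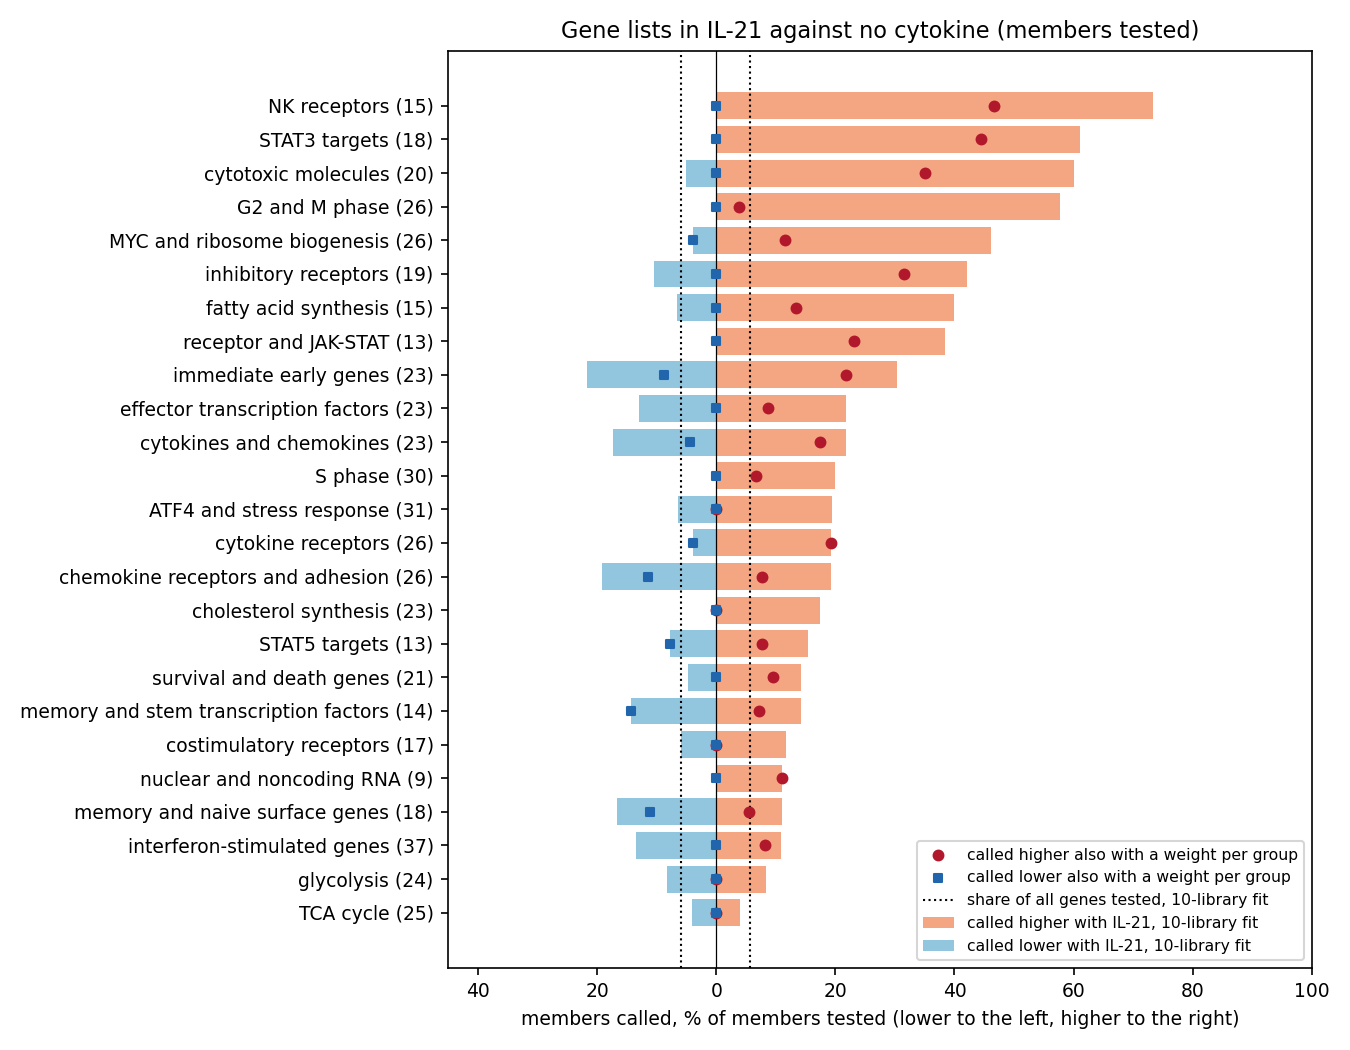
Bars give the share of each list's tested members called higher (right, up to 73.3% of the NK receptors) and lower (left) with IL-21, with the number tested in brackets. Markers show the shares that held with a weight per group, and dotted lines the shares over all genes tested, 5.65% higher and 5.9% lower.

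Immediate early genes, induced within minutes of many stimuli, were called in both directions after 48 h. Of 23 tested 7 were higher and 5 lower, with a median of 0.46. With a weight per group 5 were higher and 2 lower, and in the fit of the 4 libraries 4 and 0. Without no cytokine replicate 1 the counts were 7 and 2. Jun, a subunit of AP-1, measured 36.0 and 31.4 RPKM with IL-21 and 4.10 and 3.14 RPKM without and rose by 3.38 ± 0.16 (adjusted p = 1.03e-05, edgeR). Ier3 rose by 2.91 ± 0.27, at 28.5 and 22.6 RPKM against 2.99 and 4.59 RPKM, and Zfp36, which encodes the RNA-decay factor tristetraprolin, by 1.64 ± 0.12, at 159 and 126 RPKM against 55.1 and 46.8 RPKM. These were called in all 3 fits and their groups did not overlap. Of 37 interferon-stimulated genes 4 were higher and 5 lower, with a median of -0.14, beside the rise of Ifng. The lower count was 0 without no cytokine replicate 2, 2 without no cytokine replicate 1 or either IL-2 + LDHi library, and 8 without either IL-21 library. Oas2, an antiviral enzyme, rose by 2.28 ± 0.28, at 4.55 and 5.48 RPKM against 0.973 and 1.37 RPKM, and Zbp1, a sensor of nucleic acids, by 0.80 ± 0.12. Irgm1, a GTPase induced by interferon gamma, fell to 79.7 and 63.4 RPKM, against 115 and 121 RPKM without cytokine (-0.57 ± 0.11), a call kept in neither of the other fits nor without no cytokine replicate 2.

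Genes of cell division and growth moved by small amounts. Of 26 G2 and M phase genes 15 were higher and none lower, with a median of 0.59. The count was 8 without no cytokine replicate 1 and 5 without no cytokine replicate 2, and 1 of the rises held with a weight per group. That one was Birc5, which encodes survivin, at 14.3 and 12.7 RPKM with IL-21 and 7.53 and 6.52 RPKM without (1.1 ± 0.12). Mki67, the proliferation antigen Ki-67, measured 50.4 and 51.2 RPKM against 35.4 and 33.1 RPKM (0.74 ± 0.14, adjusted p = 0.0115, edgeR), with both IL-21 libraries above both others, a call lost without no cytokine replicate 2. Of 30 S phase genes 6 were higher and none lower (median 0.29), led by Ccne1, a cyclin of the G1 to S step, at 1.43 ± 0.15. Of 26 MYC and ribosome biogenesis genes 12 were higher and 1 lower (median 0.45). Without no cytokine replicate 1 or 2 the higher count was 4 or 6, without either IL-2 + LDHi library 4, and without either IL-21 + LDHi library 7. Rrp1b rose by 1.56 ± 0.12 in all 3 fits, and Myc itself by 0.88 ± 0.15, at 44.0 and 49.4 RPKM against 28.03 and 29.2 RPKM.

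Among metabolic lists the share of tested genes called was 46.7% for fatty acid synthesis, 17.4% for cholesterol synthesis, 16.7% for glycolysis and 8% for the TCA cycle, beside 11.5% of all genes tested. Of 24 glycolysis genes 2 were higher and 2 lower (median 0.09), and none of these held with a weight per group. Leaving out 1 library gave 0 to 7 higher, 7 without IL-21 replicate 2 and 0 without any library with inhibitor, and 0 to 5 lower, 5 without IL-21 replicate 1 and 0 without either no cytokine library or either IL-2 + LDHi library. Ldha, the muscle-type lactate dehydrogenase, measured 359 and 206.7 RPKM with IL-21 and 220.3 and 208.7 RPKM without (0.52 ± 0.17, adjusted p = 0.0762, edgeR). In RPKM, which lies low in IL-21 replicate 2, its groups overlapped and the 2 IL-21 libraries lay further apart than the groups. In log2 CPM, replicate 1 minus replicate 2 of IL-21 was 0.49 for this gene. Of 25 genes of the TCA cycle 1 was higher and 1 lower (median 0.07), with 4 higher without IL-21 replicate 2. The medians of both lists turned negative on the log2(RPKM + 1) scale, to -0.08 and -0.09. Elovl6, which lengthens fatty acids, measured 35.0 and 32.8 RPKM against 6.80 and 7.13 RPKM and rose by 2.44 ± 0.11 (adjusted p = 9.56e-06; called in all 3 fits). Acaca, the acetyl-CoA carboxylase that commits carbon to fatty acids, rose by 0.84 ± 0.11. Of 15 fatty acid synthesis genes 6 were higher and 1 lower (median 0.32), with 2 higher without either no cytokine library and 3 without IL-2 replicate 1 or any library with inhibitor. Of 23 cholesterol genes 4 were higher and none lower (median 0.41), with none called under a weight per group, 11 higher without IL-21 replicate 1 and 0 without no cytokine replicate 1.

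Among the genes that fell were many of other blood cells. Of 20 myeloid and dendritic markers 10 were lower and 1 higher (median -1.62), of 10 basophil and mast cell markers 4 were lower (median -1.66), of 10 erythroid and platelet markers 3 were lower (median -1.25) and of 10 granulocyte markers 2 (median -0.77). Over all genes tested 5.9% were lower. With a weight per group 1, 2, 2 and 0 of the lower calls held, and in the fit of the 4 libraries 0 held in each list. Without no cytokine replicate 2, the library with the highest sums, 1, 1, 2 and 0 of these were lower, and without IL-21 replicate 2 these were 12, 9, 7 and 3. The basophil and mast cell markers summed to 109.5 and 141 RPKM in the IL-21 libraries, 333 and 698 RPKM in the no cytokine libraries and 6.08 and 6.31 RPKM with IL-2. The myeloid and dendritic markers summed to 74.0 and 77.1 RPKM with IL-21, 185 and 249 RPKM without cytokine and 12.8 and 15.2 RPKM with IL-2. For erythroid and platelet markers the sums were 269.6 and 285 RPKM with IL-21, 457 and 701 RPKM without cytokine and 11.3 and 13.8 RPKM with IL-2. All of the markers on these lists that were found in the files had reads in these 4 libraries. Fewer such cells and less of their RNA per cell cannot be told apart in these bulk libraries.

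**Figure D4:**
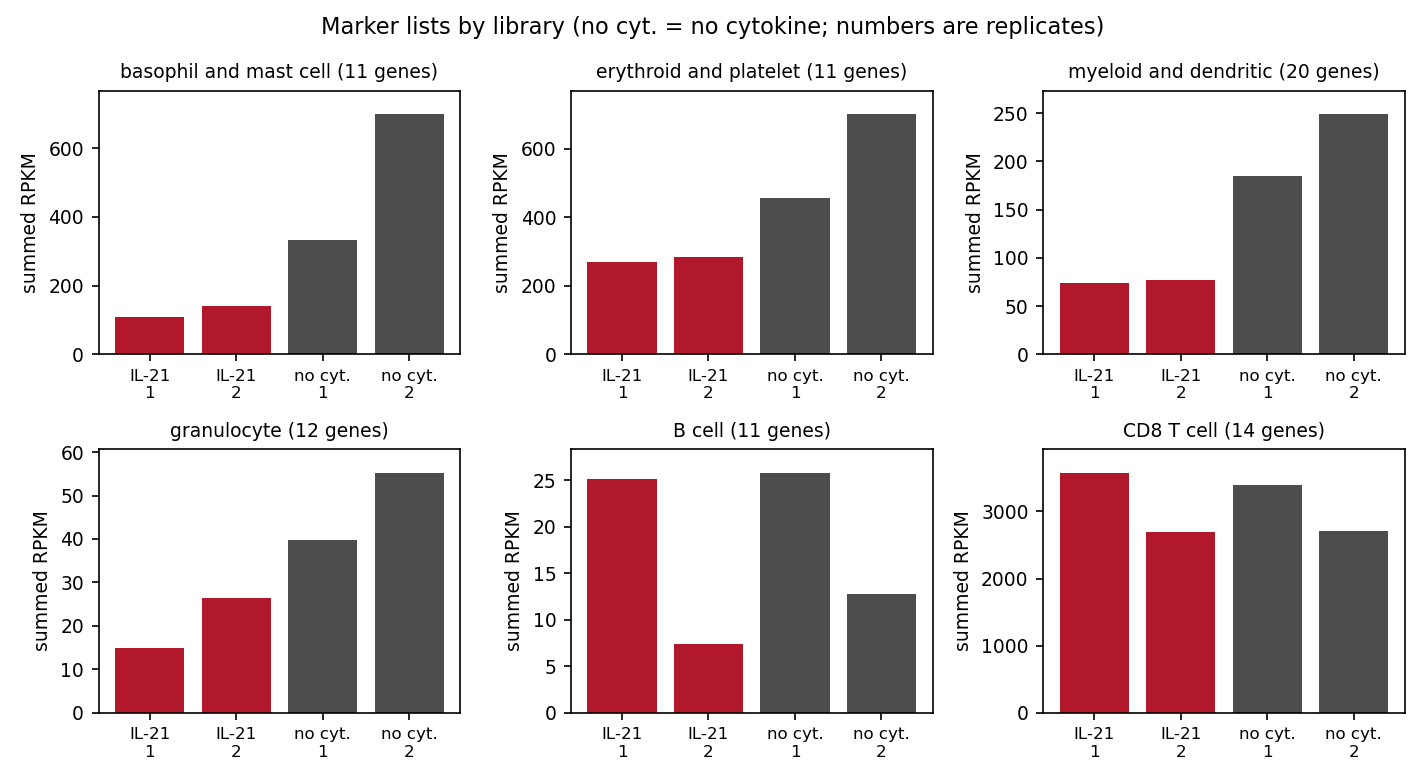
Bars give the summed RPKM of 6 marker lists in each library, IL-21 replicates 1 and 2 to the left of no cytokine replicates 1 and 2, each panel on its own axis from 0. Basophil and mast cell, erythroid and platelet, myeloid and dendritic and granulocyte sums are lower in both IL-21 libraries, B cell sums are higher in replicate 1 of both groups, and CD8 T cell sums overlap.

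Mcpt8, a basophil protease, fell to 42.4 and 44.4 RPKM with IL-21, against 133 and 257 RPKM without cytokine (-2.0 ± 0.31, adjusted p = 0.00493, edgeR), and measured 1.20 and 1.27 RPKM with IL-2. Lyz2, the myeloid lysozyme, fell to 33.4 and 35.8 RPKM, against 113 and 149 RPKM (-1.75 ± 0.33). Fcer1a, a chain of the IgE receptor, fell to 2.55 and 5.27 RPKM, against 11.3 and 36.0 RPKM (-2.39 ± 0.56). Their groups did not overlap in RPKM, which the naming rule required of Fcer1a. Both IL-21 libraries lay below both others in RPKM for 31.5% of all genes tested. The Lyz2 and Fcer1a calls were lost with a weight per group and without no cytokine replicate 2. That of Fcer1a was lost also without either IL-2 or IL-21 + LDHi library. The largest falls by the naming rule thus include Fcer1a, Lyz1 (-2.10 ± 0.34) and Clec4n, a C-type lectin of myeloid cells (-2.28 ± 0.33), beside lymphocyte genes, and the part of other cells in the falls was not tested. The pair of microRNA genes Mir7676-1 and Mir7676-2 carries identical values (-2.59 ± 0.64), lies within Csf2rb2 and Csf2rb, and was called in neither of the other fits and in 2 of the 10 fits that leave out 1 library. Capn3, a calcium-dependent protease, fell to 1.12 and 0.808 RPKM with IL-21, against 8.12 and 5.54 RPKM (-2.68 ± 0.21), and Tbc1d4, a regulator of glucose transporter traffic, to 2.05 and 1.99 RPKM, against 9.38 and 9.93 RPKM (-2.10 ± 0.15). Both were called in all 3 fits, with groups apart in RPKM as the naming rule required. Tmem154 fell by 2.23 on the log2 scale (SE 0.21), a call lost in the fit of only the 4 libraries. Itgax, which marks dendritic cells but is also found on activated CD8+ T cells, was the only member of its list called higher. It rose by 1.26 ± 0.24, at 12.5 and 10.1 RPKM with IL-21 and 6.84 and 3.67 RPKM without.

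Genes raised by IL-21 were set against IL-2 in a direct test of the same fit, in which 49.6% of all genes were called. Socs3 was higher with IL-21 by 3.95 ± 0.17 (adjusted p = 4.41e-06, edgeR), at 213.99 and 134 RPKM against 12.6 and 12.3 RPKM with IL-2, which is close to its level without cytokine. Serpinb5 was higher by 6.35 ± 0.28, at 14.6 and 13.4 RPKM against 0.228 and 0.162 RPKM, and Gzma by 5.83 ± 0.45, at 369.9 and 252 RPKM against 8.39 and 3.83 RPKM. Ggt1 was higher by 4.76 ± 0.19. Ret was higher by 7.80 ± 0.63, at 6.64 and 3.98 RPKM against 0.0329 and 0.0197 RPKM. Those IL-2 levels are close to no signal, so the size of the Ret difference is uncertain. In each, both IL-21 libraries lay far above both IL-2 libraries. For Il18r1 the difference from IL-2 was -0.03 ± 0.12 (adjusted p = 0.875), at 47.8 and 47.8 RPKM with IL-21 and 52.6 and 58.2 RPKM with IL-2, and for Lag3 0.16 ± 0.29 (adjusted p = 0.658), at 36.2 and 22.3 RPKM against 27.1 and 30.8 RPKM. Gzmb was at 672 and 692 RPKM with IL-21 and 1148 and 1027 RPKM with IL-2, a difference that was not called (-0.49 ± 0.23, adjusted p = 0.109, edgeR). Bhlhe40 was lower with IL-21 by -1.17 ± 0.15 (adjusted p = 0.000286), at 23.2 and 19.2 RPKM against 51.5 and 56.0 RPKM, and Cish, a STAT5-induced inhibitor, by -2.92 ± 0.24, at 6.66 and 3.23 RPKM against 44.0 and 38.2 RPKM. Of 13 STAT5 targets 2 were higher and 1 lower in IL-21 against no cytokine (median 0.16). Cish was among the higher, a call kept in neither of the other fits. Myb, in contrast with its level of 116 and 98.1 RPKM without cytokine, stood at 18.9 and 22.3 RPKM with IL-21 and at 21.04 and 22.6 RPKM with IL-2, a difference of 0.11 ± 0.17 (adjusted p = 0.59).

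The difference within the IL-21 pair ran across many genes, and its median varied with transcript length. Between its 2 libraries 13.4% of the genes tested differed by at least 2-fold, against 6.43% between those without cytokine and 2.9 to 6.25% within the other groups. Xkrx, which encodes a membrane protein of the XK family, measured 112 RPKM in IL-21 replicate 2 and 2.00 RPKM in replicate 1, against 3.89 and 12.9 RPKM without cytokine. It had the largest excess in replicate 2 among genes at a mean of 5 RPKM or more, and its change from no cytokine (3.07 ± 1.36, adjusted p = 0.181, edgeR) was not called. Aqp7, a glycerol channel, followed the same order, at 13.2 RPKM in replicate 2 and 1.80 RPKM in replicate 1, against 4.08 and 4.13 RPKM without cytokine. On the other side stood short transcripts such as the histone gene Hist1h2an, at 1.40 RPKM in replicate 2 and 10.2 RPKM in replicate 1, against 7.72 and 4.62 RPKM. Split into 4 classes of transcript length, the median log2 CPM difference of replicate 1 minus replicate 2 of IL-21 was 0.20 in the shortest (28 to 1723 bases), 0.06, -0.05 and -0.18 in the longest (4158 to 101674 bases). Without cytokine these medians were 0.10, 0.01, -0.04 and -0.08, and in the other 3 groups they lay between -0.06 and 0.04. The share of genes called was 9.63%, 11.6%, 11.4% and 13.6% in the classes from short to long.

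**Figure D5:**
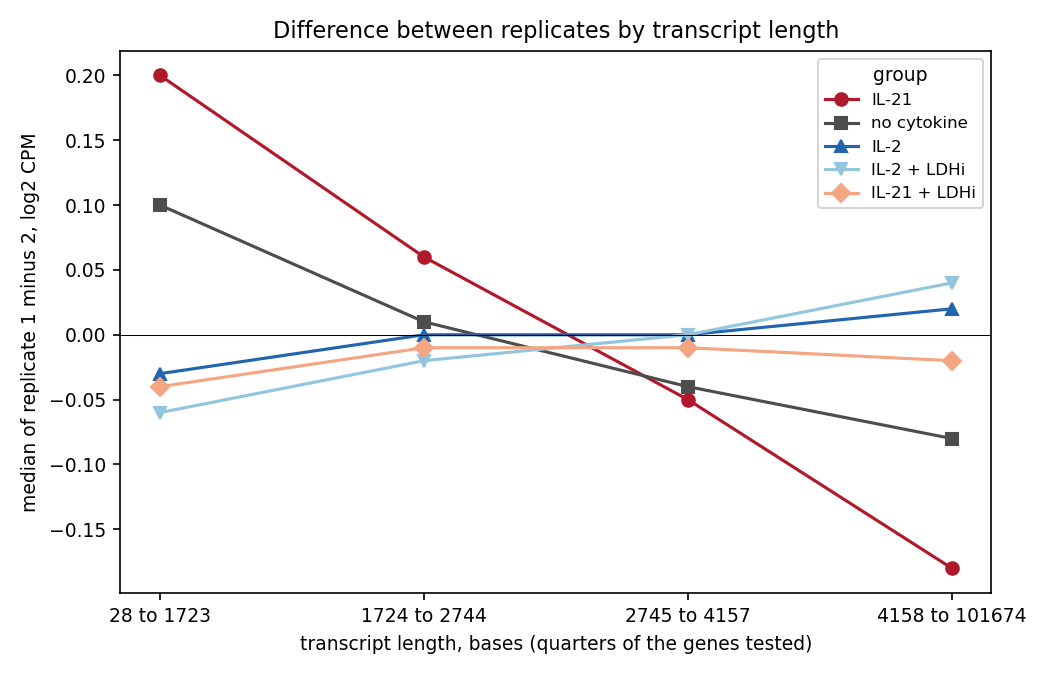
Lines give, for each of the 5 groups, the median over genes of log2 CPM in replicate 1 minus replicate 2 in 4 classes of transcript length, of 3587 to 3592 genes each. The IL-21 line falls across the classes to -0.18, the no cytokine line to -0.08, and the other 3 stay near 0.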

How the data were processed

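Libraries were made from 500 ng RNA each with Kapa mRNA HyperPrep and sequenced on a HiSeq3000, per the labels' protocols. The submitters' processing notes name mm10, TopHat2 2.2.1, Bowtie2 2.2.6, SAMtools 0.1.8, bedtools 2.25.0 and edgeR. Whether counting used strand is not stated there, so overlapping genes cannot be told apart. Each deposited table holds, per the file headers, a whole-number read count per transcript and an RPKM that the authors computed from it, the transcript length and a library total. For each of 23992 symbols the transcript (of 31682) with most reads over the 10 libraries was kept. No library was identical to its replicate.

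Tests used edgeR 4.0.16 under R 4.3.3. Genes passed filterByExpr with a minimum count of 10, asked of as many libraries as a group holds (2) and not of every library, and 15 reads in total. TMM scaling was followed by a robust quasi-likelihood fit over 10 libraries in 5 groups, two-sided, with Benjamini-Hochberg adjustment over all genes tested. Standard errors were taken from each log2 fold change and its F statistic. The alternatives were RLE size factors, scaling by library size, DESeq2 1.42.0, all genes unfiltered, RPKM of 5 in 2 libraries, limma 3.58.1 on log2(RPKM + 1), voom with a weight per group, the 2 groups fitted alone, a replicate block, a minimum of 1.5-fold, the longest transcript, and each of 10 libraries left out. The edgeR fit was also run on simulated data, where it made more false calls once the IL-21 group was given a wider spread than the others. Python 3.11.15, pandas 2.3.3, numpy 2.4.6 and, for figures, matplotlib 3.10.9 did the rest.

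Groups, 33 gene lists and named genes were chosen with earlier results of these data known, so a list's count is a description beside that of all genes tested. The naming rule took the 12 genes with the largest called change in each direction (groups apart in RPKM, a mean of 5 RPKM or more in the higher one, and neither predicted nor an antigen receptor gene), up to 4 genes of each list by p, a fixed set, the 6 genes per direction that differ most between the IL-21 replicates, and those whose promoter is shown. Genes outside it are said to have been chosen after their values were seen. Promoters are from RefSeq on GRCm38.p6, the assembly behind mm10. Some genes that the rule names are not reported here.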

Additional observations from a re-analysis of the deposited data

How the results depend on the processing

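Of 88 called genes that the text names with a value against no cytokine, 43 kept the call and direction in all alternatives, and 22 lost it in no other than the fit of the 2 groups alone. The 1658 calls (811 higher, 847 lower) came to 1083 (532 lower) with the RPKM filter, 345 (230 and 115) with a minimum of 1.5-fold, 91 (79 and 12) in the fit of the 2 groups and 374 (264 and 110) with a weight per group. With limma on log2(RPKM + 1) 440 were higher and 1335 lower. Leaving out 1 library gave 749 to 3967 calls, 418 to 1932 higher and 331 to 2035 lower. DESeq2 called 2379, RLE size factors 1667, no filter 1671 and the longest transcript 1642. Against IL-2, 7123 calls came to 4349 with the RPKM filter, 3541 with the 1.5-fold minimum, 4522 with the 2 groups alone, and 4509 to 8370 without 1 library. The cause was not tested.

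The labels do not say what libraries of the same replicate number share, and 2 pairs are too few to settle a pairing, so the numbers were not taken to pair the libraries. Replicate differences correlated at 0.458 between IL-21 and no cytokine and between -0.138 and 0.088 for the other group pairs. With a replicate block in all groups 1616 genes were called (752 higher, 864 lower) and 7031 against IL-2. A replicate block in the IL-21 and no cytokine libraries alone, chosen after seeing the data, called 4418 (1975 higher, 2443 lower), and a crossed block in the IL-21 and IL-2 libraries, also added later, 7600 against IL-2.

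Signs turned only in values not called over 10 libraries. Against no cytokine, leaving out 1 library gave Xkrx -2.05 to 4.19, Aqp7 -1.18 to 2.00 and Hist1h2an -1.83 to 0.74, and Hist1h2an came to 0.00 with RLE size factors and 0.01 in the fit of the 2 groups. Against IL-2, limma on log2(RPKM + 1) gave Myb -0.08 and Lag3 -0.02, and Il18r1 came to 0.04 with library size alone and 0.02 with the RPKM filter. Without 1 library Myb ran from -0.18 to 0.35, Il18r1 from -0.18 to 0.11 and Lag3 from -0.06 to 0.35.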

Other observations

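The genes in this paragraph were chosen after their values were seen, from the 88 called in all 3 fits. Ly6a, which encodes the stem and memory antigen Sca-1, measured 591 and 373 RPKM with IL-21 and 79.6 and 66.8 RPKM without cytokine and rose by 2.85 ± 0.15 (adjusted p = 1.81e-05, edgeR). Cd7, a surface glycoprotein of T and natural killer cells, stood at 302 and 206.3 RPKM against 46.2 and 32.1 RPKM (2.84 ± 0.18) and was higher than with IL-2 by 4.10 ± 0.19. Moxd1, a monooxygenase-like gene, had a fitted rise of 7.40 ± 0.29 at 3.01 and 2.09 RPKM, against 0.0230 and 0.00719 RPKM from 5 reads without cytokine. Sgk1, a kinase downstream of PI3K, rose by 1.89 ± 0.14 and Nfkbiz, which encodes a nuclear IκB protein, by 1.83 ± 0.13. Among the falls, Tdrp dropped to 12.4 and 9.69 RPKM, against 40.2 and 40.0 RPKM (-1.71 ± 0.09), and Tspan32, a tetraspanin of blood cells, to 14.9 and 8.97 RPKM, against 51.1 and 46.9 RPKM (-1.91 ± 0.16). In each of these the IL-21 libraries lay clear of those without cytokine.

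Lists not described above gave the following counts in IL-21 against no cytokine. Of 18 memory and naive surface genes 2 were higher and 3 lower (median -0.17), with Slamf6 lower by -0.96 ± 0.12. Of 17 costimulatory receptors 2 were higher and 1 lower, and none of these calls held with a weight per group. Their median of 0.13 turned to -0.07 on the log2(RPKM + 1) scale. It was -0.13 without IL-21 replicate 1 and -0.06 without no cytokine replicate 2. Of 21 survival and death genes 3 were higher, among them the death receptor gene Fas (1.01 ± 0.11), and 1 lower, with 6 higher and 3 lower without IL-21 replicate 1. Of 31 ATF4 and stress response genes 6 were higher and 2 lower (median 0.17), with none called under a weight per group. The higher count was 1 without no cytokine replicate 1 or either IL-2 + LDHi library, 2 without either IL-2 or IL-21 + LDHi library, 3 without no cytokine replicate 2 and 10 without IL-21 replicate 2, and the lower count lay between 0 and 2. Of 9 nuclear and noncoding RNAs 1 was higher, Miat, by 5.31 ± 0.56, from 544 and 301 reads with IL-21 against 9 and 14 without cytokine. Of 14 CD8 T cell markers 1 was higher, Ptprc, by 0.60 ± 0.13, in neither of the other fits. None of the 4 CD4 T cell, 10 B cell and 4 stromal markers tested was called.

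B cell markers followed the replicate number in all 5 groups. Their median log2 CPM difference of replicate 1 minus replicate 2 was 1.28 in IL-21, 1.84 without cytokine, 0.94 in IL-2, 0.83 in IL-2 + LDHi and 2.65 in IL-21 + LDHi, against -0.02 to 0.00 over all genes. Basophil and mast cell markers went the other way in IL-21 (-1.08) and without cytokine (-1.33).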
